A study of Homo sapiens with 3 samples.

Results

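The genes described here repair the lesions that platinum drugs leave in DNA. The set holds 39 genes of nucleotide excision repair, the Fanconi anaemia pathway, homologous recombination, translesion synthesis and mismatch repair, taken by name from the probes of the array and represented by the brightest probe of each gene. Of the 39 genes, 35 had a probe outside the first 9 columns of the array, where the control signal of 1 array was low, and these are counted below among 17450 genes measured in the same way. The other 4 members, DDB2, FANCE, XRCC3 and MSH6, have their probe in those edge columns only and are described apart from the counts.

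Gene expression was measured in YB5 cells. They descend from 1 cell of SW48, an established line from a colon tumour, and hold a silenced GFP transgene under the CMV promoter. There were 3 dual-colour Agilent whole human genome arrays, 1 for each treatment, and no biological replicates. Cells were given decitabine at 25 nM, carboplatin at 20 μM, or both at these doses, with 4 daily doses on days 1 to 4 and harvest on day 6. On each array the treated RNA carried Cy3 and the RNA of DMSO-treated YB5 cells carried Cy5, with the dyes never exchanged, so that a bias of dye and an effect of treatment cannot be told apart within an array. Whether the control RNA of the 3 arrays is 1 extract is not given in the sources used here. The study's text is not uniform on the dose of carboplatin for these arrays. It gives the dose above, that of the labels, in one place and a different one in another. Since each array compares bulk RNA, fewer cells with a transcript and less of it per cell cannot be told apart.

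Carboplatin binds neighbouring guanines on 1 strand and, more rarely, joins both strands, which blocks replication and transcription. Nucleotide excision repair cuts out the adduct on a single strand, while a crosslink between strands is recognised by the Fanconi core complex, marked by ubiquitin on FANCD2 and FANCI, unhooked, bypassed by translesion polymerases and rebuilt by homologous recombination. Decitabine, a nucleoside drug, depletes the enzymes that copy methylation marks, so that cells lose these marks as they divide. Many Fanconi and recombination genes are made mainly in S phase under E2F factors, and XPC, DDB2 and POLH are known targets of p53.

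Before the repair genes are described, the labels of the arrays need a remark. Each array is named here by its label, and values are given in the order array labelled decitabine, array labelled carboplatin, array of both drugs, as the log2 change of treated over control. Of 16 measured p53 target genes, 16, 8 and 16 were at least 1.5-fold higher, with medians of 2.22, 0.56 and 2.00. With median centring in place of loess the counts were 16, 2 and 15. GDF15, a stress cytokine, was changed by 4.96, 1.65 and 5.14. MDM2, the ubiquitin ligase that restrains p53, was changed by 3.35, 0.62 and 3.26. Of 11 measured germline genes, which are commonly silenced by promoter methylation in somatic cells, 0, 2 and 2 were at least 1.5-fold higher. These counts depend on the scaling, and were 7, 6 and 5 with the scanner software's processed signals, 2, 6 and 4 with median centring and 1, 6 and 5 without the normexp offset. With the processed signals 22.7% of all genes were higher past 1.5-fold on the array labelled decitabine. Of the 11 germline genes, 6 were well above background in neither channel of any array. PRAME read 6.31, 6.07 and 5.92 in log2 intensity in control and 6.28, 9.10 and 8.88 in treated cells, and SOHLH1 read 5.93, 6.09 and 6.01 in control and 6.01, 7.15 and 7.88 in treated cells. Both were well above background in the treated channel of the array labelled carboplatin and of that of both drugs, and not well above it in any control channel or on the array labelled decitabine. The p53 targets thus stood highest on the array labelled decitabine and on that of both drugs. PRAME and SOHLH1 stood highest on the array labelled carboplatin and on that of both drugs. The main actions described above would place germline genes under decitabine and p53 targets under carboplatin. DNA damage by decitabine is described in the study too, at higher doses. Whether the labels match the treatments was not tested. The study also lists genes of DNA replication and the cell cycle as lowered by carboplatin, a list chosen on these arrays. The whole list was not tallied. Only its genes among the members and comparison lists here were looked at, which are BLM, POLA1, POLE2, POLQ, RMI1, CHAF1A, GINS2 and UHRF1. They were changed by -0.83 (UHRF1) to -0.50 (POLA1) on the array labelled decitabine and by -0.41 (POLQ) to 0.30 (UHRF1) on the array labelled carboplatin. Among apoptosis genes the study lists as raised by carboplatin, PLK3, GADD45A, BBC3 and ZMAT3 are p53 targets here. On the array labelled decitabine they were changed by 1.94 (GADD45A) to 2.99 (PLK3). On that labelled carboplatin they were changed by 0.22 (GADD45A) to 1.12 (PLK3). No array was reassigned, and every drug name below is a label. The cells bore the markers of their line. Of 9 measured markers of colon epithelium, 8 were well above background in the control channel of all arrays, among them CDX2, KRT18 and CDH1. Of 10 markers of blood, endothelium and fibroblasts, 4 were well above background there (CD3E, CD14, VWF and COL1A1), while PTPRC, PECAM1 and COL1A2 were above it in neither channel of any array.

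The promoters of the members whose signal moved furthest show how these genes differ in sequence. RefSeq windows of GRCh38.p14, from 250 bases before to 50 after each start site, were given for 38 of the 39 members. They were searched on both strands for the E2F motif in the forms TTTCCCGC, TTTGGCGC, TTTCGCGC and TTTGCCGC. Of the 38 members 9 held a match (23.7%), against 754 of 13546 measured genes with a window (5.57%). A match was found for 4 of the 6 members at least 1.5-fold lower on an array (FANCA, FANCC, FANCD2 and XRCC2, not FANCL and BRCA1), for 2 of the 4 at least 1.5-fold higher (XPC and REV3L) and for 2 of the 24 measured members with a window that passed 1.5-fold on no array (EXO1 and PMS2). The remaining match was in MSH6. The stretches below are shown because their genes carry the changes that follow. They run 5′ to 3′ on the strand of the gene, with the match or its reverse complement in capitals.
FANCA, chr16:89816801-89816830: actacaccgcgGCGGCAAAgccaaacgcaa
FANCC, chr9:95317737-95317766: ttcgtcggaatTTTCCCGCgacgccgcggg
FANCD2, chr3:10026424-10026453: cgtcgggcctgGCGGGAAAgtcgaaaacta
XRCC2, chr7:152676102-152676131: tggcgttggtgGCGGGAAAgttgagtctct
XPC, chr3:14178824-14178851: cctgcgcccTTTCCCGCctctcgcgaga
REV3L, chr6:111483288-111483317: ctctcgctcctTTTCCCGCcgagccccctc

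FANCA, FANCC and XRCC2, and also XPC and REV3L, lie on the minus strand, and FANCD2 lies on the plus strand. Counted from the start site, the match began at base -172 in FANCA, -46 in FANCC, -2 in FANCD2, 22 in XRCC2, -241 in XPC and -88 in REV3L. FANCC held another match at base -172. So the letters of the motif stood in promoters of both directions of change, and members without a match changed as well. Only exact forms inside the windows were searched, so a site of another form or farther away would be missed. Whether E2F acts on these genes was not tested. The CCAAT box was held by 42.1% of the members and 42.8% of the measured genes, and the cell cycle homology region, TTTGAA or TTCGAA, by 13.2% and 17.1%. A half-site of p53 was held by 2 members, DDB2 and BLM (5.26%), against 8.05% of the measured genes. XPC and POLH, named above as p53 targets, held none in their windows. Sites outside the windows were not searched, so a missing half-site does not show that a gene lacks a p53 site. In DDB2 alone among the members there were a pair of half-sites with 1 base between them, at bases 6 to 26 of 1 of its transcripts, and 2 of the 13546 genes (0.0148%) held a pair no more than 13 bases apart. The stretch is given because DDB2, a damage sensor, returns below, and it was chosen after its values were seen.
DDB2, chr11:47214975-47215004 (plus strand, half-sites in capitals): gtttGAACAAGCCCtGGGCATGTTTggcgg

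As a group, the measured Fanconi members stood below 0 on the array labelled decitabine and on that of both drugs. XPC, RAD51C, POLH and REV3L stood higher there. On the array labelled carboplatin XPC alone of the 35 measured members passed the threshold below. A change of at least 1.5-fold, a log2 change of 0.585, is called past 1.5-fold here, and no test was possible with 1 array per treatment. On the array labelled decitabine 4 of 35 measured members were higher past 1.5-fold and 6 lower, beside 5.12% and 4.91% of all genes. On the array labelled carboplatin 1 member was higher and 0 lower, beside 2.73% and 1.42%. On the array of both drugs 4 were higher and 3 lower, beside 7.39% and 5.82%. Median changes of the members were -0.14, -0.00 and -0.18, and those of all genes -0.00, -0.00 and 0.01. Past 1.5-fold on at least 1 array were 4 members upwards (XPC, RAD51C, POLH and REV3L) and 6 downwards (FANCA, FANCC, FANCL, FANCD2, BRCA1 and XRCC2). All 10 passed on the array labelled decitabine, and 7 of them also on that of both drugs. On the array labelled decitabine 11.4% of the members were higher and 17.1% lower, and on that of both drugs 11.4% and 8.57%. Among genes well above background in both channels, 6.99%, 3.43% and 9.60% were higher on the 3 arrays and 6.80%, 1.93% and 7.95% lower. The shares of members on the array of both drugs lay near these. Spots of 1 probe repeated on an array had a pooled SD of 0.08, 0.07 and 0.08 on the log2 scale, which holds the error of the spot and none of the culture or hybridisation. All 35 measured members were well above background in both channels of all arrays.

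**Figure D1:**
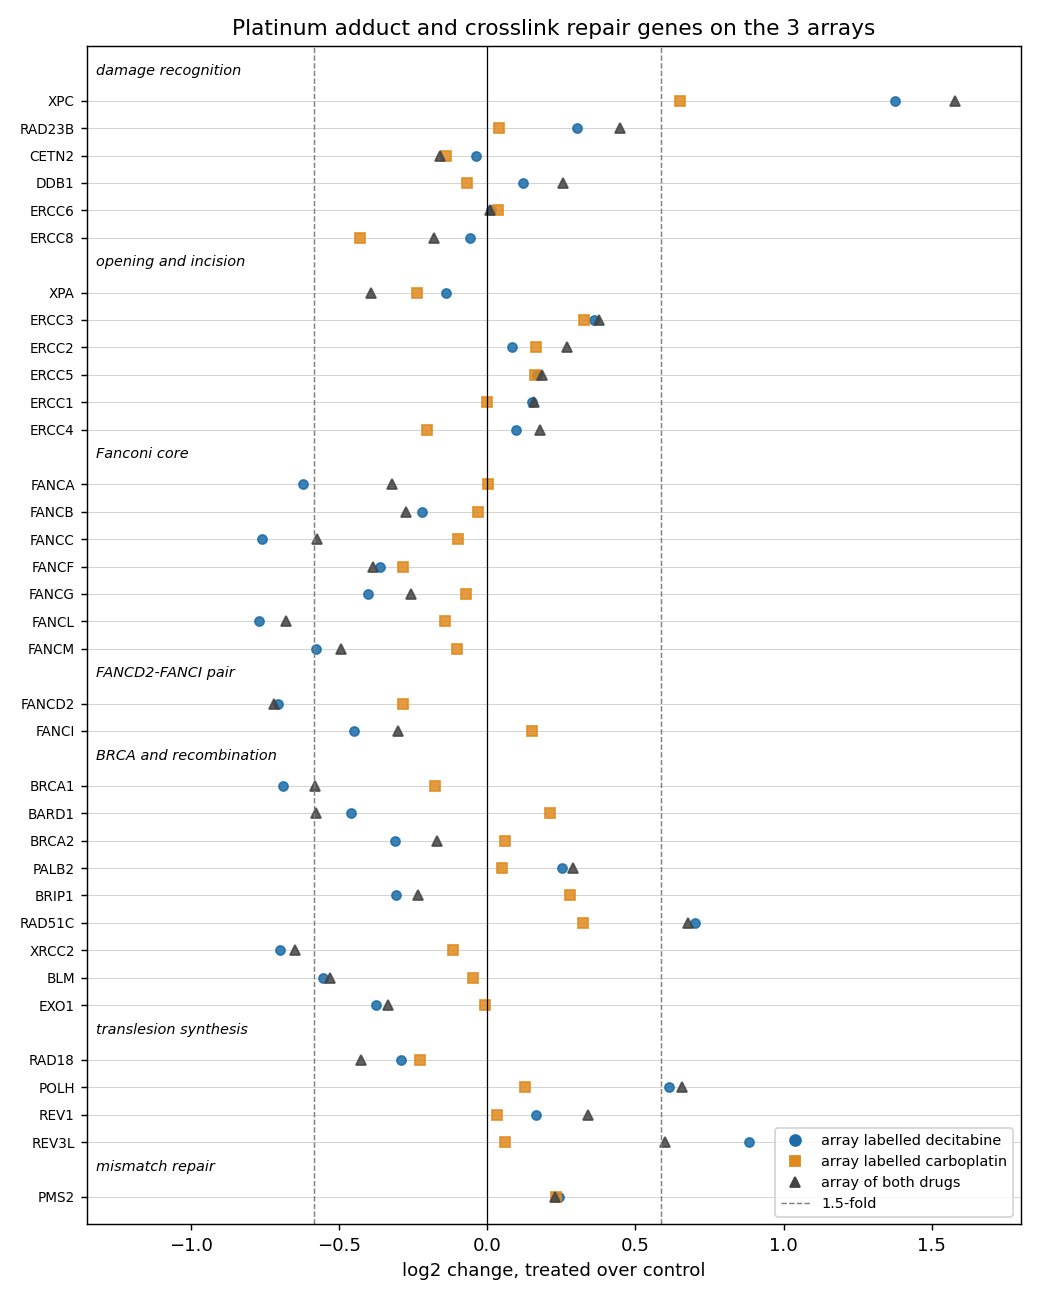
The log2 change of treated over control is plotted for each of the 35 measured members, ordered by role, with circles for the array labelled decitabine, squares for the array labelled carboplatin and triangles for the array of both drugs; broken lines mark 1.5-fold. All 9 Fanconi members lie below 0 on the array labelled decitabine and on that of both drugs, and XPC lies above 1.5-fold on all 3 arrays.

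Of the 35 members outside the edge columns, the one with the greatest change was XPC, a sensor of nucleotide excision repair. XPC finds distorted DNA anywhere in the genome and starts global repair. Its control channel read 10.22, 10.13 and 10.19 in log2 intensity, and its treated channel 11.59, 10.78 and 11.77. The change was 1.38 (2.60-fold), 0.65 (1.57-fold) and 1.58 (2.98-fold), from a probe at chr3:14187441-14187500 of hg19. The control values were within 0.1 of each other and all 3 treated values stood above them. Among the 35 members outside the edge columns, XPC was the only one past 1.5-fold on the array labelled carboplatin, and this call was lost with median centring (0.25) and in the authors' deposited values (0.57). Its partners were measured at smaller values. RAD23B, which stabilises XPC, was changed by 0.30, 0.04 and 0.45, and CETN2, the third subunit, by -0.04, -0.14 and -0.16. A second probe of RAD23B gave -0.06, 0.17 and 0.08, so its probes differed in sign on the array labelled decitabine. DDB1, the platform of the ultraviolet damage sensor, was changed by 0.12, -0.07 and 0.26. ERCC6 and ERCC8, which start repair at stalled RNA polymerase, were changed by 0.01, 0.04 and 0.01 and by -0.06, -0.43 and -0.18. The value of ERCC8 on the array labelled carboplatin was the lowest of any member there.

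The genes that open and cut DNA around an adduct stayed within 1.5-fold on all arrays. XPA, which checks the lesion, was changed by -0.14, -0.24 and -0.39. ERCC3 and ERCC2 are the helicases of TFIIH, and were changed by 0.36, 0.32 and 0.38 and by 0.08, 0.17 and 0.27. ERCC3 thus had nearly the same value on each array. ERCC5, the nuclease that cuts 3′ of the lesion, was changed by 0.17, 0.16 and 0.19. ERCC1 and ERCC4 form the nuclease that cuts on the 5′ side and also acts on crosslinks. ERCC1 was changed by 0.15, -0.00 and 0.16, and ERCC4 by 0.10, -0.20 and 0.18. The other probe of ERCC4 above background gave -0.17, -0.36 and -0.19. The direction of ERCC4 thus depends on the probe on the arrays labelled decitabine and of both drugs. The median over the 12 measured excision repair members was 0.11, 0.02 and 0.18, with median centring in place of loess -0.29, -0.35 and -0.29, so no direction is given for this group.

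The measured Fanconi members stood below 0 together on the arrays labelled decitabine and of both drugs. FAAP100, a partner of FANCL outside the members, stood above 0 on all arrays and is given below. Over the 9 measured members of the core complex and the FANCD2-FANCI pair the median change was -0.58, -0.10 and -0.39. Of these members 4, 0 and 2 were lower past 1.5-fold, beside 4.91%, 1.42% and 5.82% of all genes. All 9 were below 0 on the array labelled decitabine and on that of both drugs, and 7 of 9 on the array labelled carboplatin. Of all 17450 genes 8758, 8837 and 8553 were below 0, and of 12 housekeeping genes 10, 9 and 9. The median was below 0 on every array under each of the 9 other ways of processing, from -0.99 to -0.44 on the array labelled decitabine and from -0.81 to -0.35 on that of both drugs. With median centring 8, 3 and 8 of the 9 were lower past 1.5-fold, beside 19.4%, 16.9% and 21.2% of all genes.

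FANCL is the ubiquitin ligase of the core complex. Its control channel read 12.67, 12.72 and 12.67 and its treated channel 11.90, 12.57 and 11.99. The change was -0.77, -0.14 and -0.68, from a probe at chr2:58386477-58386536 of hg19. The treated signal was thus lower by a similar amount on both arrays that carry the label decitabine. FANCC, a core subunit, read 9.91, 10.07 and 9.92 in control and 9.15, 9.97 and 9.34 in treated cells. Its change was -0.76, -0.10 and -0.58, from a probe at chr9:97861522-97861581. On the array of both drugs FANCC lay just inside 1.5-fold. FANCD2, which is loaded on DNA at the crosslink, read 10.92, 10.81 and 10.89 in control and 10.21, 10.53 and 10.17 in treated cells. The change of FANCD2 was -0.71, -0.29 and -0.72, from a probe at chr3:10143006-10143065. A second probe of FANCD2 gave -0.46, -0.33 and -0.51, the same sign on each array. Its size was smaller on the arrays labelled decitabine and of both drugs, and slightly larger on that labelled carboplatin. FANCD2 had the lowest value of any member on the array of both drugs.

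FANCA, a scaffold of the core, read 11.22, 11.30 and 11.24 in control and 10.60, 11.30 and 10.92 in treated cells. The change was -0.62, 0.00 and -0.32, from a probe at chr16:89804013-89804072. FANCA was the member that differed most upwards between the array of both drugs and the array labelled decitabine, by 0.30. Its probe is printed repeatedly, and outside the edge columns 7, 8 and 8 spots gave ranges of -0.65 to -0.59, -0.08 to 0.06 and -0.39 to -0.25. The ranges of the 3 arrays did not overlap. The remaining members of the pathway were within 1.5-fold. FANCM, which anchors the core to DNA, was changed by -0.58, -0.10 and -0.49, and its other probes gave -0.34, -0.08 and -0.44 and -0.49, -0.03 and -0.33. FANCG was changed by -0.40, -0.07 and -0.26. FANCF was changed by -0.36, -0.29 and -0.39, and FANCB by -0.22, -0.03 and -0.28. FANCF stood at nearly the same value on all arrays, unlike FANCL or FANCC. FANCI, the partner of FANCD2, was changed by -0.45, 0.15 and -0.30 with its brightest probe and by -0.82, -0.28 and -0.78 with another, so that FANCI would pass 1.5-fold on 2 arrays with that probe.

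**Figure D2:**
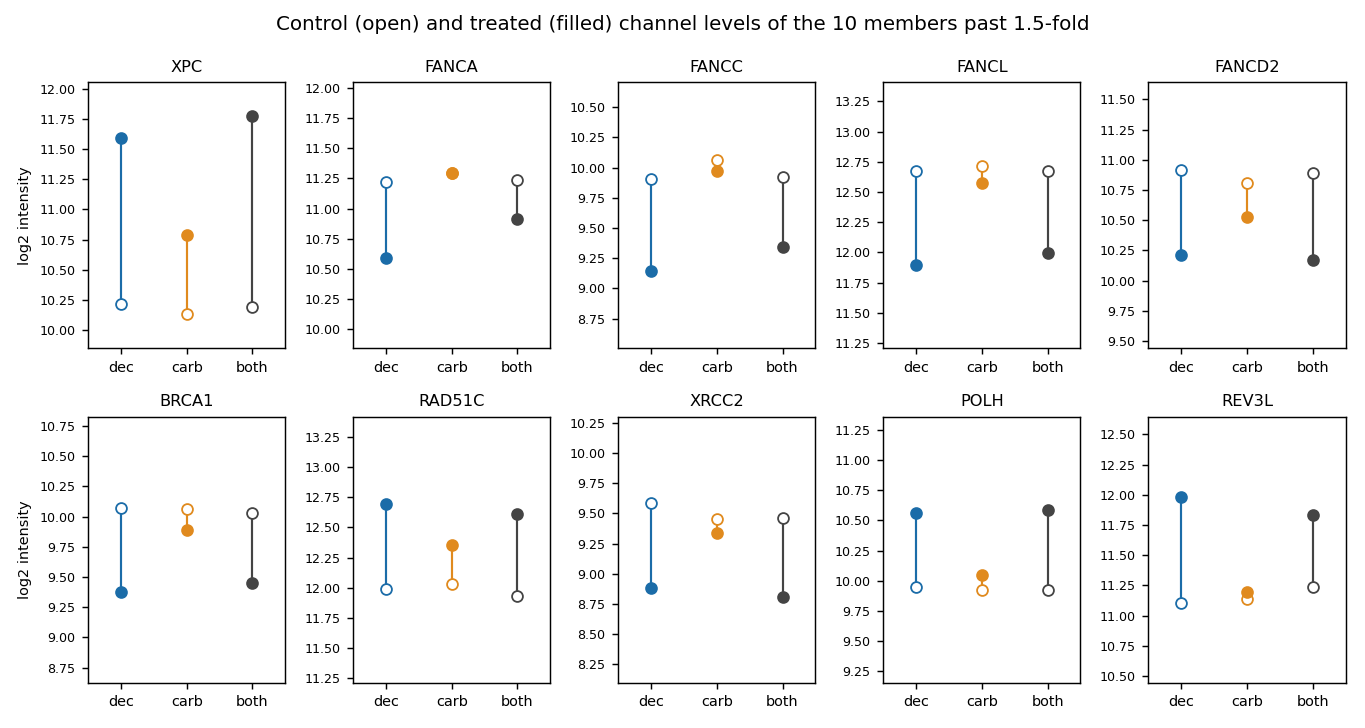
Log2 intensity of the control channel (open) and the treated channel (filled) is plotted on each array (dec, labelled decitabine; carb, labelled carboplatin; both, both drugs) for the 10 members past 1.5-fold on at least 1 array; each panel spans the same number of log2 units around its own centre. The control levels of a gene stay close to each other over the arrays, so that the changes lie mostly in the treated channel.

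In homologous recombination most members stood below 0 on the arrays labelled decitabine and of both drugs, while RAD51C stood above. The median of the 9 measured members was -0.38, 0.05 and -0.33, with 7, 4 and 7 below 0. With median centring it was -0.79, -0.20 and -0.75, and the processed signals gave -0.64 on the array labelled decitabine, with 5 members lower past 1.5-fold where 2 were reported, beside 11.7% of all genes where 4.91% were reported. BRCA1, which channels breaks into recombination, read 10.07, 10.07 and 10.03 in control and 9.38, 9.89 and 9.45 in treated cells, and its change was -0.69, -0.18 and -0.58. The BRCA1 probe, at chr17:41196422-41196481 of hg19, had 10 spots on each array, with ranges of -0.76 to -0.63, -0.22 to -0.12 and -0.65 to -0.50. The ranges of the arrays labelled decitabine and of both drugs overlapped, and both lay below that of the array labelled carboplatin. BARD1, the partner of BRCA1, was changed by -0.46, 0.21 and -0.58. It had the most negative difference of any member between the array of both drugs and that labelled carboplatin, -0.79.

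XRCC2, which acts in strand exchange, read 9.58, 9.45 and 9.46 in control and 8.89, 9.34 and 8.81 in treated cells. Its change was -0.70, -0.12 and -0.65, from a probe at chr7:152343063-152343122. RAD51C, which also acts in strand exchange, read 11.99, 12.03 and 11.94 in control and 12.69, 12.36 and 12.61 in treated cells. Its change was 0.70, 0.32 and 0.68, from a probe at chr17:56772439-56772498. XRCC2 and RAD51C thus stood on opposite sides of 0 on all 3 arrays, except that with median centring RAD51C was at -0.14 on the array labelled carboplatin. BLM, a helicase that dissolves recombination intermediates, was changed by -0.55, -0.05 and -0.53, just inside 1.5-fold. BLM belongs to the study's list of lowered genes described above, which was chosen on these arrays, and is no independent example. EXO1, which resects DNA ends, was changed by -0.38, -0.01 and -0.33, with 10 spots of it ranging from -0.43 to -0.31, from -0.10 to 0.06 and from -0.37 to -0.26. BRCA2, a mediator of strand exchange, was changed by -0.31, 0.06 and -0.17, with 9 spots from -0.44 to -0.09, from -0.08 to 0.14 and from -0.23 to -0.09. Its spots on the array labelled decitabine spread the most of the 4 repeated members and overlapped those of both drugs. PALB2, which joins BRCA1 to BRCA2, was changed by 0.25, 0.05 and 0.29, opposite to both of its partners on the first and last of these arrays. BRIP1, a helicase bound by BRCA1, was changed by -0.31, 0.28 and -0.23, while another probe, well above background in the treated channel on 1 of 3 arrays, gave -0.19 on the array labelled carboplatin.

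**Figure D3:**
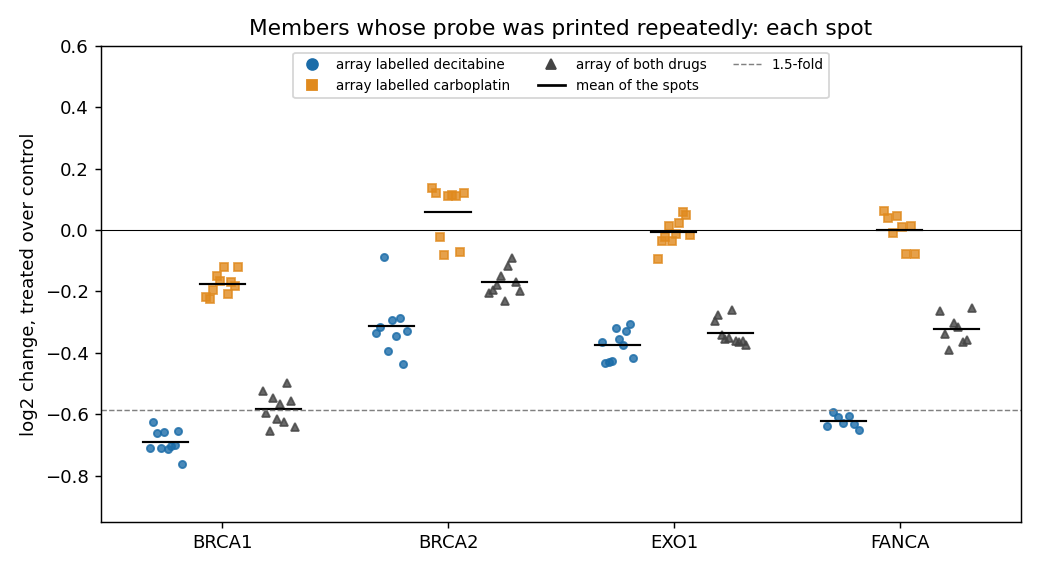
Each point is the log2 change of 1 spot of the probe for BRCA1, BRCA2, EXO1 or FANCA on the array labelled decitabine (circles), labelled carboplatin (squares) or of both drugs (triangles); black bars are the means of the 7 to 10 spots and the broken line marks 1.5-fold. In FANCA the 3 arrays separate, while in BRCA1, BRCA2 and EXO1 the arrays labelled decitabine and of both drugs overlap.

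Translesion polymerases copy past lesions that stop the replicative enzymes. REV3L, the catalytic subunit of polymerase zeta, read 11.10, 11.14 and 11.23 in control and 11.99, 11.20 and 11.83 in treated cells. Its change was 0.88 (1.85-fold), 0.06 and 0.60, from a probe at chr6:111620514-111620573 of hg19. REV3L had the most negative difference of any member between the array of both drugs and that labelled decitabine, -0.29. POLH, which passes platinum adducts between neighbouring guanines, read 9.95, 9.92 and 9.93 in control and 10.56, 10.05 and 10.59 in treated cells. Its change was 0.61, 0.13 and 0.66, from a probe at chr6:43588198-43588257. Other probes of POLH gave 0.57, 0.18 and 0.52 and 1.26, 0.31 and 1.11, so all of its probes had 1 sign and differed in size. REV1, a scaffold for these polymerases, was changed by 0.16, 0.03 and 0.34. RAD18, the ligase that marks PCNA and calls them in, was changed by -0.29, -0.23 and -0.43. The median of the 4 genes was 0.39, 0.05 and 0.47, and with median centring 0.02, -0.33 and 0.07. Of mismatch repair, PMS2 alone was measured outside the edge columns, at 0.24, 0.23 and 0.23. PMS2 has near-identical pseudogene copies that its probes may share, so its value is uncertain.

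The 25 members that passed 1.5-fold on no array ranged from -0.58 (FANCM) to 0.36 (ERCC3) on the array labelled decitabine. They ranged from -0.43 (ERCC8) to 0.32 (ERCC3) on the array labelled carboplatin, and from -0.58 (BARD1) to 0.45 (RAD23B) on that of both drugs.

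The arrays were then set against each other, member by member. Between the array of both drugs and that labelled decitabine 0 of 35 members differed by 1.5-fold, beside 1.81% of all genes higher and 0.321% lower with both drugs. The median difference of the members was 0.04, with a range from -0.29 to 0.30. Between the array of both drugs and that labelled carboplatin, XPC was higher by 0.93 and BARD1 lower by 0.79 on the log2 scale, beside 4.13% and 3.36% of all genes. Between the array labelled decitabine and that labelled carboplatin, 2 members were higher (XPC and REV3L) and 5 lower (FANCA, FANCC, FANCL, FANCI and BARD1), beside 3.68% and 4.5% of all genes. With its other probe FANCI was at -0.82 and -0.28 on these arrays, a difference inside 1.5-fold. A probe carried the same dye for treated cells on each array. With no repeat of an array, none of these differences has an error beyond that of the spots.

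Other genes of the same pathways were described in the same way. Of 18 measured other excision repair genes, 1, 0 and 1 were higher past 1.5-fold and 1, 0 and 1 lower, with medians of -0.01, -0.03 and -0.10. GTF2H3, a subunit of TFIIH, was changed by 0.73, 0.14 and 0.65, and XRCC1, a scaffold of single-strand break repair, by -0.61, -0.05 and -0.69. Of 21 measured other crosslink and recombination genes, 1, 1 and 1 were higher and 3, 1 and 3 lower. Their medians were -0.19, -0.00 and -0.24, with 19, 12 and 16 of 21 below 0. RAD54B, a motor of recombination, was changed by -0.79, -0.26 and -0.78, and RMI1, a partner of BLM, by -0.67, -0.25 and -0.80. RAD51B, a further recombination gene, was changed by -0.75, -0.60 and -1.08. FAAP100, a partner of FANCL, was changed by 0.62, 0.75 and 0.99, in the direction opposite to FANCL. RAD51B and FAAP100 were past 1.5-fold on all arrays as reported. FAAP100 was at 0.18, 0.31 and 0.54 with median centring, and on the array labelled decitabine at 0.42 in the processed signals and 0.51 in the authors' values. RAD51B was at -0.53 on the array labelled carboplatin with the mean over its probes. Of 10 other translesion genes none passed 1.5-fold on any array, with medians of -0.12, 0.01 and -0.04. POLK, which also copies past damaged bases, was changed by -0.27, -0.44 and -0.53, and POLQ, which joins broken ends, by -0.51, -0.41 and -0.45. With median centring the lower genes were 4, 3 and 8 of the other excision repair list, 10, 6 and 12 of the crosslink list and 3, 3 and 4 of the translesion list, beside 19.4%, 16.9% and 21.2% of all genes.

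The S-phase markers were set beside the Fanconi members. Of 20 measured markers 0, 1 and 0 were higher and 5, 0 and 5 lower past 1.5-fold. Their medians were -0.39, 0.15 and -0.30. With median centring the medians were -0.85, -0.28 and -0.77, with 16, 2 and 13 lower. MCM3 and MCM5, subunits of the replicative helicase, were changed by -1.01, -0.11 and -0.96 and by -0.82, 0.14 and -0.68. UHRF1, which brings maintenance methylation to new DNA, was changed by -0.83, 0.30 and -0.77. CDT1, which licenses origins, was changed by 0.26, 0.68 and 0.41. The part of cell cycle phase in the values of the repair genes was not tested. Housekeeping genes were below 0 to a similar extent on each array, with medians of -0.22, -0.21 and -0.26 over 12 genes, of which 2, 3 and 3 were lower past 1.5-fold. ACTB and PPIA were changed by -0.84, -0.54 and -1.0003 and by -0.84, -0.77 and -0.91, RPLP0 by -0.43, -0.73 and -0.65, and TFRC by -0.12, -0.68 and -0.04. With median centring these medians were -0.71, -0.77 and -0.81, with 9, 9 and 7 lower past 1.5-fold. The median of the Fanconi members on the array of both drugs, -0.39, thus lay beyond that of the housekeeping genes as reported, and both stood at -0.81 with median centring.

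**Figure D4:**
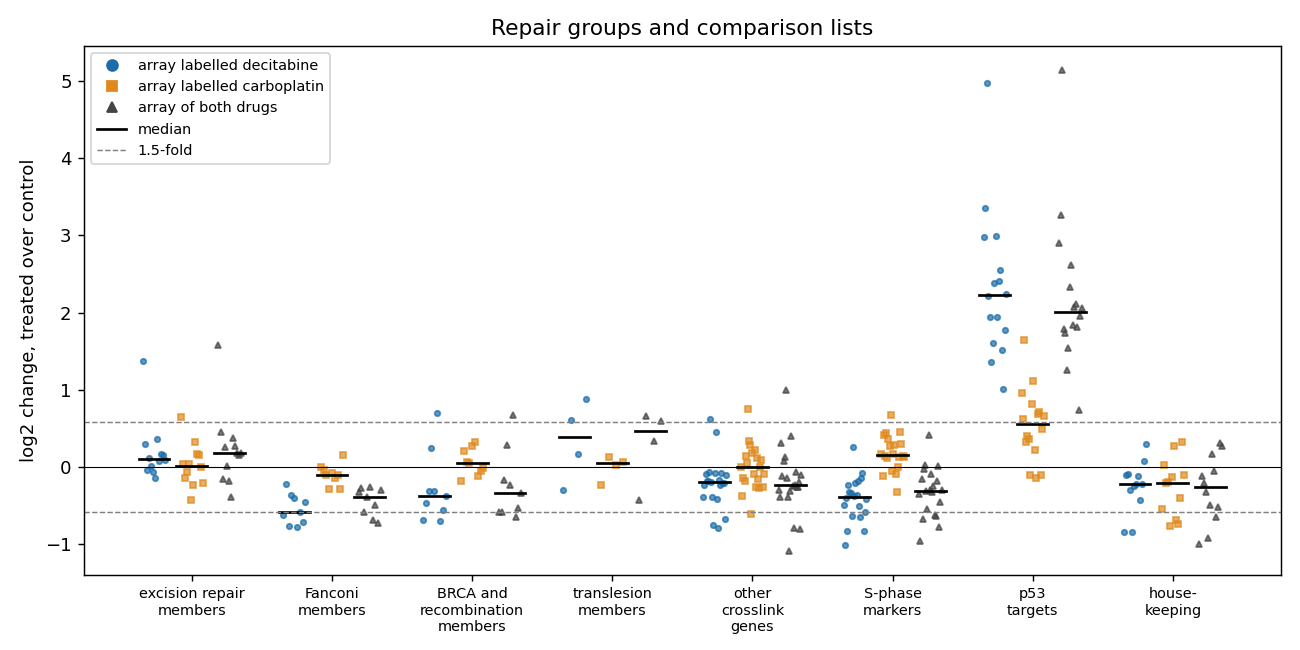
The log2 change of each gene is plotted for 4 role groups of the members and 4 comparison lists on the array labelled decitabine (circles), labelled carboplatin (squares) and of both drugs (triangles), with black bars at the medians and broken lines at 1.5-fold. Fanconi members and S-phase markers have medians below 0 on the arrays labelled decitabine and of both drugs, where all 16 p53 targets lie above 1.5-fold.

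How the values are computed decides some of the calls. Of the 18 values of members past 1.5-fold, 10 passed in the same direction under all 9 other ways of processing, and 17 kept their sign under all 9. Keeping only probes well above background could change none of these values, since all measured members were well above it. The mean over probes could change only FANCD2 and POLH, which alone of these genes have several probes outside the edge columns. XPC passed under all 9 on the arrays labelled decitabine and of both drugs, as did FANCL and XRCC2. FANCD2 did so on the array of both drugs. FANCA, FANCC and BRCA1 passed under all 9 on the array labelled decitabine. RAD51C, POLH and REV3L did not pass with median centring on any array, and the authors' deposited values put RAD51C and POLH within 1.5-fold on every array. FANCD2 on the array labelled decitabine was at 0.60 when the edge columns were kept, because its brightest probe then lies in them, and at -0.58, just inside 1.5-fold, with the mean over its probes. On the array of both drugs BRCA1 and FANCC, reported just inside 1.5-fold, passed it under 6 and 4 of the 9 other ways.

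**Figure D5:**
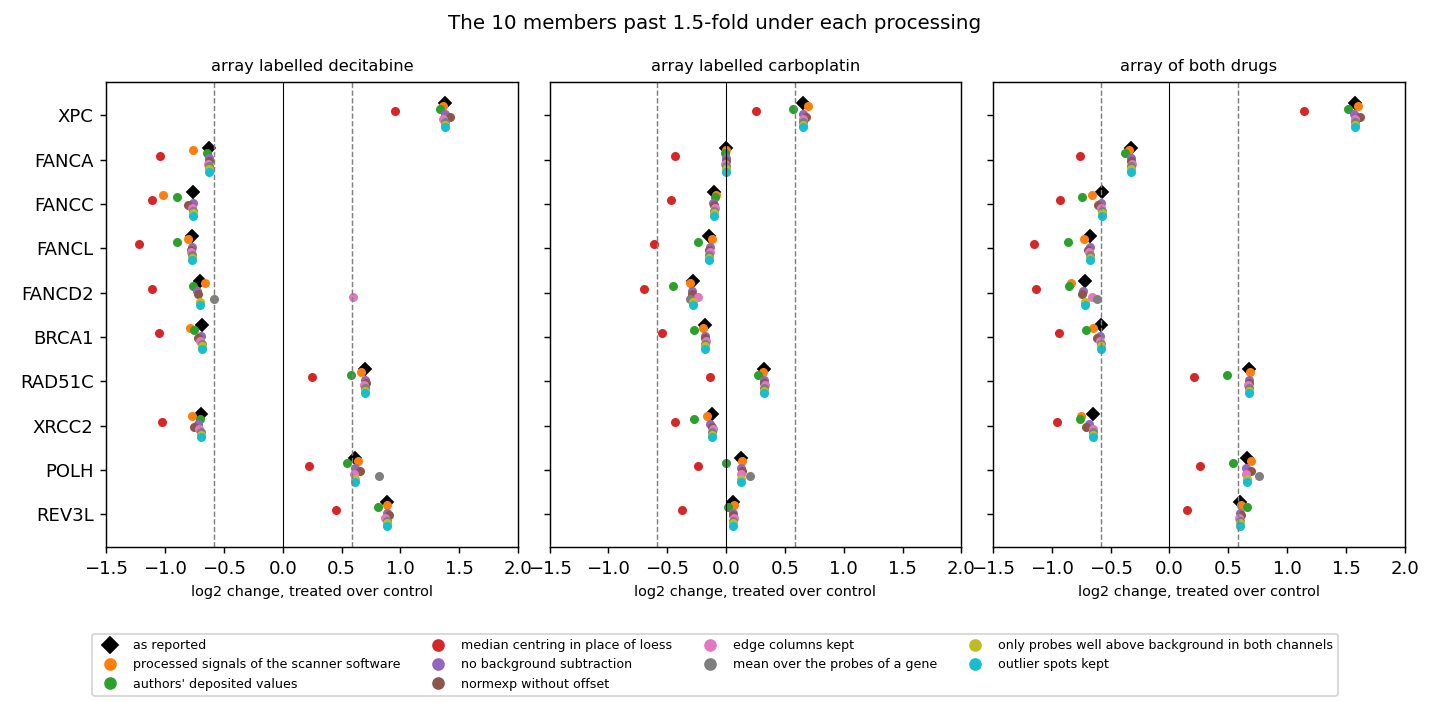
The log2 change of the 10 members past 1.5-fold is plotted on each array as reported (black diamonds) and under 9 other ways of processing (coloured circles), with broken lines at 1.5-fold. Median centring in place of loess shifts every one of these genes to lower values, and FANCD2 alone crosses 0 from a value past 1.5-fold, on the array labelled decitabine with edge columns kept.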

How the data were processed

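RNA from treated and control YB5 cells was hybridised to 3 Agilent arrays, each with 43376 spots besides the control spots. The deposited scanner files give mean signals and local background as spot intensity without subtraction. Processed signals, also deposited, had been detrended, dye normalised and freed of background by the scanner software. The submitters' notes name Agilent Feature Extraction 8.5.1.1 and R 3.0.2, and the file headers name Feature Extraction 9.5.3.1. The authors' table gives log2 ratios, loess normalised by the authors with limma, whose direction was set by its correlation with the scanner values (0.95, 0.91 and 0.96).

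Here the 9 edge columns were dropped, since the median change of their spots was 0.75, -0.03 and 0.01 on the 3 arrays when all columns were normalised together. The 39012 remaining spots were corrected by normexp with an offset of 50, and each array was normalised by loess (R 4.3.3, limma 3.58.1; Python 3.11.15, pandas 2.3.3). Channel levels came from Aquantile scaling. Control spots and 114, 103 and 83 outlier spots had no weight in the loess fit and were left out of the values. Spots of a probe were averaged, and the probe with the highest mean intensity stands for a gene. Of 41000 probes, 29381 matched 18606 RefSeq genes. Medians of the mean signal were 321, 311 and 280 in control and 163, 162 and 166 in treated channels. The number of arrays limits precision.

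Groups were taken from the labels. Every member was accounted for, members past 1.5-fold on an array were given in full, and up to 4 genes with the greatest change were named from each list. Members and lists were chosen with earlier results of these data known. The alternatives were the processed signals, the authors' values, median centring, no background subtraction, no offset, edge columns kept, the mean over probes, only probes well above background, and outliers kept. Promoter windows and positions of their matches are from RefSeq (GRCh38.p14). All stretches printed were chosen by the values of their genes, and those of FANCD2, XRCC2 and DDB2 reach past the start site. Probe positions are those of the scanner files (hg19).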

Additional observations from a re-analysis of the deposited data

Results flagged for a closer look

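DDB2, which binds damaged DNA and hands it to XPC, has its only probe in the edge columns and took part in no count of changed members above. With those columns normalised on their own, its log2 change was past 1.5-fold on each array, at 1.74 for the label decitabine, 0.87 for the label carboplatin and 1.95 for both drugs. It was drawn to attention as a signal in spots left out of the comparisons. The probe was well above background in both channels of all arrays. With all columns normalised together the values were 3.26, 0.83 and 1.99, and the authors' deposited values were 2.22, 1.30 and 2.33. The size on the array labelled decitabine therefore depends on how the edge is treated, while the sign does not. The part of the edge in these values was not tested beyond this.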

How the results depend on the processing

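Every array is a single hybridisation, so depth of signal was not the limit for the members, all well above background, but culture and hybridisation error are unknown. No paired analysis was possible because each treatment has 1 array. Values are in the order array labelled decitabine, array labelled carboplatin, array of both drugs where 3 are given. Median centring in place of loess moved the median of all genes to -0.12, -0.13 and -0.10, and the members' medians to -0.44, -0.37 and -0.50. Relative to all genes these are -0.32, -0.24 and -0.41. It left 1, 0 and 1 members higher and 14, 6 and 15 lower past 1.5-fold, where 4, 1 and 4 higher and 6, 0 and 3 lower were reported. Of all genes 5.43%, 4.66% and 4.31% were higher there, and 19.4%, 16.9% and 21.2% lower. The processed signals gave 11 lower members with a median of -0.26 on the array labelled decitabine, and 6 lower with a median of -0.28 on that of both drugs, beside 11.7% and 11.2% of all genes. The authors' values gave 2, 0 and 2 higher, beside 4.20%, 2.60% and 6.40% of all genes. They gave 7 lower with a median of -0.29 on the array of both drugs, beside 8.10% of all genes. On that array 5 were lower without background subtraction (5.85% of all genes) and 6 without the normexp offset (10.0%). With edge columns kept, all 39 members were counted. Of these, 12 were higher with a median of 0.0025 on the array labelled decitabine, beside 10.6% of all genes. On that labelled carboplatin 2 were higher, beside 2.76% of all genes. FANCD2 then reversed to 0.60 on the array labelled decitabine. The other counts stayed within 1.5 times those reported and the other medians within the SD of repeated spots. The cause of these shifts was not tested, except that FANCD2 has its brightest probe in the edge columns.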

Other observations

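The other 3 members with a probe in the edge columns only, again in the order array labelled decitabine, array labelled carboplatin, array of both drugs, gave values within 1.5-fold on all arrays when those columns were normalised on their own, a way of processing chosen after seeing the data. FANCE, a core subunit that binds FANCD2, was changed by -0.09, 0.31 and 0.04. XRCC3, which pairs with RAD51C, was changed by 0.31, 0.34 and 0.37, beside 0.70, 0.32 and 0.68 for RAD51C. The study lists XRCC3 among genes it selected on these same arrays. MSH6, which recognises mismatches, was changed by -0.41, -0.01 and -0.58. With all columns normalised together MSH6 was at 1.07 on the array labelled decitabine, and in the authors' values at -0.07. FANCE and XRCC3 were at 1.39 and 1.03 on that array with all columns together, while the authors' values were 0.41, 0.61 and 0.43 for FANCE and 0.59, 0.67 and 0.64 for XRCC3, past 1.5-fold on the array labelled carboplatin for FANCE and on all arrays for XRCC3.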
